A study of Mus musculus with 9 samples.

Results

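The genes described here are 60 genes of the G2 and M phases of the cell cycle, measured in stomach epithelial cells of C57BL/6 mice. They were listed by name, with earlier results of these data known. They cover mitotic kinases and cyclins, the spindle checkpoint, the kinetochore, motors and other proteins of the spindle, and the condensin proteins that compact chromosomes. Each gene was read from the probe set that the platform annotation pairs with it alone, taking the brightest over the 9 arrays where there were several. Such a probe set was found for 59 of the 60 (Ccnb1, cyclin B1, was not analysed here), among 18193 genes with such a probe set in the whole series. Genes were tested where at least 3 arrays had them above their own median, which all 59 members did, and 11006 genes were tested in all.

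Total RNA of 9 samples was hybridised to 1 Affymetrix mouse array each, in 3 groups of 3. The chief group held corpus cells positive for Mist1 and for Tomato, a red fluorescent protein, and Mist1 (gene Bhlha15) is a transcription factor of cells that secrete enzymes. The isthmus group held cells with the same 2 labels, from corpus that had undergone Lgr5+ cell ablation. Samples of gastric parietal cells, which secrete acid, made up the parietal group. The Mist1+ cells were sorted by flow cytometry. The ablating agent, the time after ablation, the alleles behind the reporter, age and sex, and the way parietal cells were collected are not stated in the sources used here. The labels do not say that replicates came from separate animals, so p-values here measure the spread between these 9 samples alone, which may be technical.

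A cell that divides copies its DNA and then, in G2, builds up the cyclins and kinases that drive entry into mitosis. Motor proteins and microtubules form a spindle, kinetochores tie each chromosome to it, and a checkpoint holds the sister chromatids together until every chromosome is attached. Many of these genes are transcribed together late in the cycle, in part through the DREAM and MuvB complexes, which act at a promoter element called the cell cycle homology region, and through NF-Y, which binds CCAAT boxes. In the gastric corpus, most division takes place in progenitors of the isthmus, whereas chief cells divide rarely and parietal cells are non-dividing.

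Each array was scaled to the same level, with a trimmed mean of 496.2 to 497.2 on the linear scale and array medians between 5.80 and 6.70 on the log2 scale. Marker sums on the linear scale went with the labels for parietal cells (10 of 10 listed markers measured), at 81812 to 94259 on parietal arrays against 29557 to 47745 on all others. The chief cell list (11 of 13 measured) summed to 119467 to 169919 on chief arrays, 33339 to 49852 on isthmus arrays and 25894 to 35997 on parietal arrays. Bhlha15 itself was at 10.75, 10.05 and 9.20 on the chief arrays but at 5.03, 1.34 and 7.36 on the isthmus arrays, below the array median on replicates 1 and 2 there. Chief replicate 3 stood apart, with a fibroblast marker sum of 25819 (at most 414 on the other arrays) and an erythroid sum of 24697 (at most 4175). The endothelial sum was 772 to 1456 on parietal arrays and 68 to 308 elsewhere, mostly from Plvap. Leukocyte sums were 116 to 1562, with Ptprc at 0 on parietal replicate 2.

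Promoter sequences are shown first because most members share a pair of short motifs that the choice of genes did not use. Of the 60 members, 50 had an entry in the RefSeq promoter table (GRCm38.p6), which gives 250 bases before to 50 after each gene's start. The letters TTTGAA, the core of the cell cycle homology region, were in 35 of the 50 (70%) on either strand, against 18.1% of all 27025 promoters of that length. CCAAT was in 37 (74%) against 37.9%, and 23 members (46%) held at least 2 copies, against 12.2%. Both motifs were in 30 members (60%) against 7.12% of all promoters. The variant TTCGAA was in 5 members (10%) against 1.57% (it cannot match the same 6 letters as TTTGAA), and GGCGGG, the core of a GC box, in 38 (76%) against 35.5%.

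Sequences of 4 promoters with both motifs and of Pttg1, whose signal went the other way and whose window has neither, run from 170 bases before to 30 after the start. Ccnb2 lies at chr9:70421525-70421724, Cdk1 at chr10:69352883-69353082, Mki67 at chr7:135716350-135716549 and Pttg1 at chr11:43425952-43426151, all on the minus strand. Cenpa lies at chr5:30666716-30666915 on the plus strand. The Pttg1 window is inside the annotated span of that gene, chr11:43420244-43427463. The 5′ end of that span, at 43427463, was not searched, so a lack of motifs holds for this inner window alone. Capitals mark TTTGAA and CCAAT or their reverse complements TTCAAA and ATTGG, read 5′ to 3′ on the gene's strand.
Ccnb2: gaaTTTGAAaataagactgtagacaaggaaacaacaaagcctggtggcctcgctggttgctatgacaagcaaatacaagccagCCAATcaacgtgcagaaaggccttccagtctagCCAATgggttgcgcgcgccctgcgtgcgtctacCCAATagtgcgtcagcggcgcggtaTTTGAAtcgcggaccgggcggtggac
Cdk1: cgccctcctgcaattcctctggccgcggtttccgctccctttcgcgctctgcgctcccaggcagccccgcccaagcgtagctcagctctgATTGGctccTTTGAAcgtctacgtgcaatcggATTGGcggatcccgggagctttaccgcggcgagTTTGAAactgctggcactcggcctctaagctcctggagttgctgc
Mki67: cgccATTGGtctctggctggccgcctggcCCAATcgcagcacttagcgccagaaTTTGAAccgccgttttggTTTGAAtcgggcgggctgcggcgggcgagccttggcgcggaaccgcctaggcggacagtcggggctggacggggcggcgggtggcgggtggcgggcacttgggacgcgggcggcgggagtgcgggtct
Cenpa: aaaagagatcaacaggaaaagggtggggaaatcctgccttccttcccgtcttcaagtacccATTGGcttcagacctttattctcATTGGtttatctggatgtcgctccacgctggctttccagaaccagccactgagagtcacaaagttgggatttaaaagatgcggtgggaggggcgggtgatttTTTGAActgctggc
Pttg1: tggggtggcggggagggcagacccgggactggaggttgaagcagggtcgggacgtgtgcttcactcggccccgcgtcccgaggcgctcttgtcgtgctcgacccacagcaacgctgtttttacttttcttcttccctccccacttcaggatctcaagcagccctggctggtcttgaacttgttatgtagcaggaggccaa
In these windows Ccnb2 held 2 copies of TTTGAA and 3 of CCAAT, Cdk1 and Mki67 held 2 of each, and Cenpa held 1 and 2. Neither motif was in the Pttg1 window, nor in the promoters of Melk, Birc5, Mad2l1, Nusap1, Plk4 and Ncaph, which fell in parietal against chief cells, or of Nuf2, which was not called. A match is a description of letters and was not tested as a binding site.

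Parietal cells had the lowest signal for most mitotic genes. Against the chief group, 41 of the 59 members fell in the parietal group and 1 rose, where 13.5% of all tested genes fell and 10.7% rose. Against the isthmus group, 51 fell and 1 rose, where 15.4% and 12.2% of tested genes did so. A call is a limma adjusted p (Benjamini-Hochberg, over 11006 genes) under 0.05. All 9 arrays shared a single fit and its estimate of the spread. Leaving out an array of the group not compared can therefore change an adjusted p but not the difference. The median log2 difference over the members was -3.46 against chief and -4.55 against isthmus, beside -0.10 and -0.09 over all tested genes. Many parietal values lay below the array median, where low signals are hardly resolved, and with every array floored at its own median the medians were -1.92 and -3.16. In RNA from bulk samples, fewer dividing cells and less of these transcripts per cell cannot be told apart.

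All 3 parietal arrays lay below all 3 chief arrays for 38 of the 59 members, where 21.2% of tested genes did so. They lay below all 3 isthmus arrays for 56, against 24% of tested genes. Pttg1 alone had all parietal arrays above each other group, which 18.7% and 20.3% of tested genes did. Of the 59 members, 18 were above the array median on all 3 parietal arrays and 15 on none, whereas 42 were above it on all 3 chief arrays and 57 on all 3 isthmus arrays. The 2 comparisons share the parietal arrays and are given side by side. Without chief replicate 3, the array with fibroblast and erythroid signal, 30 members fell and 1 rose against chief, and without chief replicate 1 these counts were 46 and 1. Markers of other epithelial cells were lower on the parietal arrays too. The enteroendocrine sum was 480 to 716 there against 41121 to 80553 in chief and 18813 to 42559 in isthmus samples, and 5 of 7 tested markers fell against each. The mucous neck sum was 2782 to 7158 against 13313 to 30463 and 12618 to 14142, with 4 of 4 falling against chief and 3 of 4 against isthmus. For surface pit cells it was 64714 to 71942 against 121330 to 143708 and 82369 to 99967, with 6 of 7 and 4 of 7 falling. The part of these and of the endothelial, chief and parietal marker signals in the mitotic gene differences was not tested.

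**Figure D1:**
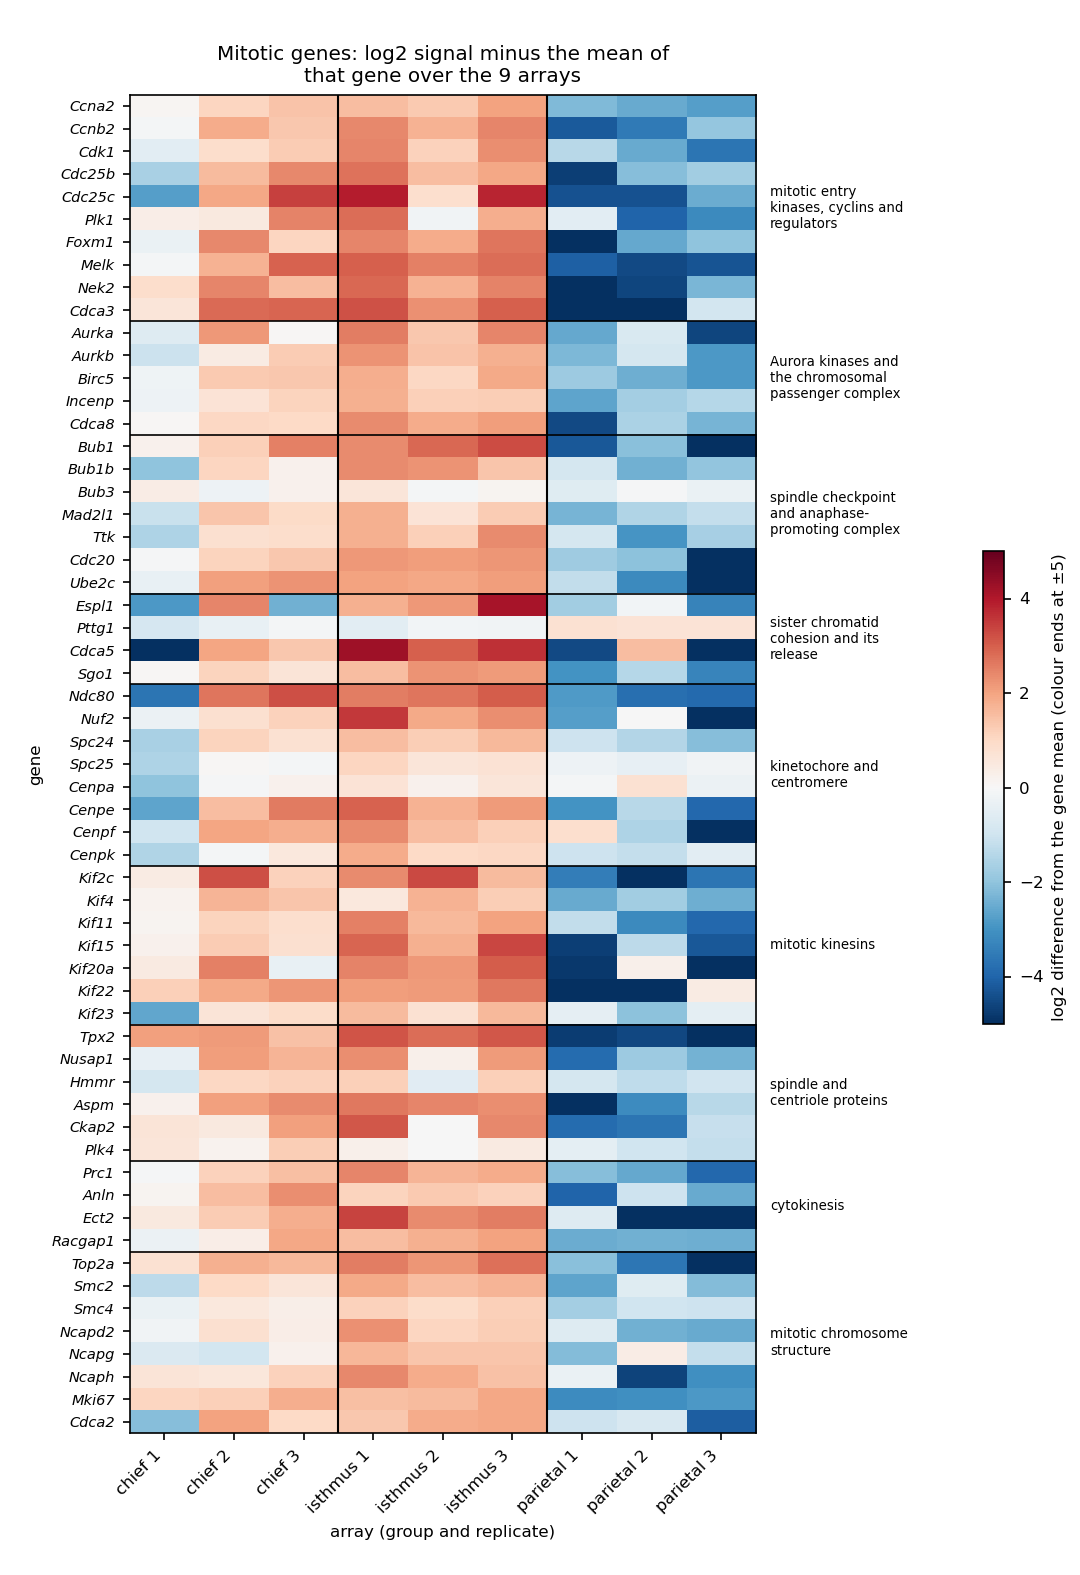
Log2 signal of each of the 59 measured members (rows, ordered by role) on each of the 9 arrays (columns), as the difference from that gene's mean over the 9 arrays, with colours ending at a difference of 5 in either direction. Most rows are below their mean on the 3 parietal arrays and above it on the isthmus arrays, chief replicate 1 is paler or bluer than the other chief arrays, and the Pttg1 row runs the other way.

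Mitotic entry kinases, cyclins and regulators were lower in parietal cells: 10 of 10 measured members fell against both chief and isthmus cells, with median log2 differences of -4.32 and -5.54. Ccna2, cyclin A2, a partner of Cdk1 and Cdk2, was at 10.21, 11.17 and 11.54 on chief arrays, 11.65, 11.40 and 12.10 on isthmus arrays and 7.88, 7.57 and 7.34 on parietal arrays. The parietal values were below all others, 10.4-fold lower than chief (adjusted p = 5.64e-05) and 17.4-fold lower than isthmus (adjusted p = 1.28e-05). Cdk1, the kinase that drives entry into mitosis, read 7.43, 8.83 and 9.22 in chief, 10.37, 9.08 and 10.25 in isthmus and 6.56, 5.43 and 4.29 in parietal samples. It did not overlap between parietal and chief arrays and was at least 5.35-fold lower (adjusted p = 0.00751). A fold is written as "at least" where an array of the dimmer group was below its own array median, which then replaced its value.

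Cdca3, part of a ubiquitin ligase that removes the Cdk1 inhibitor Wee1, had a parietal minus chief difference of -7.06 ± 1.29 (SE), with parietal values mostly too low to be resolved. Its signal was 8.82, 11.05 and 11.14 on chief arrays, 11.40, 10.52 and 11.19 on isthmus arrays and 1.22, 1.31 and 7.29 on parietal arrays. Parietal replicate 3 was far above the other parietal arrays but still below every chief array, and the fold was at least 16.3 (adjusted p = 0.00169). Melk, a kinase of dividing cells, was at 6.33, 8.19 and 9.38 (chief), 9.44, 8.94 and 9.24 (isthmus) and 2.35, 1.92 and 2.12 (parietal). Nek2, a kinase of the centrosome, was at 7.31, 8.86 and 7.94, then 9.28, 8.14 and 8.90, then 1.36, 1.82 and 4.11 in the same order. Both were below every chief and isthmus value on all parietal arrays, at least 4.38-fold for Melk (adjusted p = 0.000382) and at least 4.59-fold for Nek2 (adjusted p = 0.000678) against chief.

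Foxm1, the transcription factor that switches on many genes of late G2, read 6.36, 9.10 and 7.77 in chief, 9.14, 8.56 and 9.39 in isthmus and 1.19, 4.17 and 4.71 in parietal samples. The parietal arrays were lowest without overlap, at least 3.75-fold below chief (adjusted p = 0.00677). Plk1, the polo-like kinase of spindle and centrosome, read 7.56, 7.70 and 9.71, then 10.03, 7.05 and 9.06, then 6.71, 3.22 and 4.04. Here isthmus replicate 2 came close to the highest parietal array, and the fall against chief was at least 4.59-fold (adjusted p = 0.0208). That call for Plk1 was lost without chief replicate 3 (adjusted p = 0.0893), parietal replicate 2 (adjusted p = 0.0762) or parietal replicate 3 (adjusted p = 0.0656), and the call against isthmus without isthmus replicate 1 (adjusted p = 0.0553). Cdc25c, a phosphatase that activates Cdk1, was at 2.54, 7.22 and 8.73 (chief), 9.21, 6.15 and 9.09 (isthmus) and 0.95, 0.96 and 2.82 (parietal). Chief replicate 1 fell within the parietal range, so no fold could be bounded against chief. Its call against chief (adjusted p = 0.044) was lost on leaving out any 1 of chief replicates 2 and 3, the 3 parietal replicates or isthmus replicates 1 and 3 (adjusted p from 0.0536 to 0.178). Cdc25b, a related phosphatase, fell at least 3.61-fold against chief (adjusted p = 0.0256). It no longer passed when chief replicate 2, chief replicate 3 or parietal replicate 1 was left out (adjusted p = 0.0857, 0.109 and 0.0864).

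Aurora kinases and the chromosomal passenger complex, which corrects faulty attachments of chromosomes to the spindle, fell in 5 of 5 members against each Mist1+ group. The median log2 differences were -3.16 against chief and -3.96 against isthmus. Birc5 (survivin) read 9.0, 10.50 and 10.56 on chief arrays, 11.03, 10.22 and 11.08 on isthmus arrays and 7.37, 6.75 and 6.32 on parietal arrays. The parietal arrays lay apart from both groups, 9.23-fold below chief (adjusted p = 0.000646) and 15.6-fold below isthmus (adjusted p = 0.000124). Aurka, the kinase of the spindle poles, was at 6.86, 9.65 and 7.56 in chief, 10.05, 8.83 and 9.95 in isthmus and 4.95, 6.74 and 2.90 in parietal samples. Parietal replicate 2 came just below the lowest chief array, and the fall was at least 3.66-fold against chief (adjusted p = 0.0309) and at least 11-fold against isthmus (adjusted p = 0.00289). The Aurka call against chief held under 10 of 20 alternatives and was lost without chief replicates 2 or 3 or parietal replicates 1 or 3 (adjusted p from 0.0522 to 0.127). On the mean of its 2 probe sets Aurka passed neither comparison (differences -1.24 and -2.24, adjusted p = 0.375 and 0.0971). The scaffold Incenp and borealin (Cdca8) were 5.36-fold and 11.3-fold below chief (adjusted p = 0.000765 and 0.000978), the call of Incenp being lost on the mean of its 5 probe sets (adjusted p = 0.0646).

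Aurkb, the kinase of the complex, was at 6.50, 7.96 and 8.83 in chief, 9.80, 8.99 and 9.35 in isthmus and 5.32, 6.67 and 4.68 in parietal samples. Parietal replicate 2 exceeded chief replicate 1, while the isthmus arrays were above every other array. Aurkb was at least 9.54-fold below isthmus in parietal cells (adjusted p = 0.002). Its fall against chief, at least 3.11-fold (adjusted p = 0.0445), was lost in 7 of the 9 fits that left out 1 array. These were the fits without chief replicate 3 (log2 difference -1.67, adjusted p = 0.166), parietal replicate 3 (-1.77, adjusted p = 0.143), chief replicate 2 (-2.11, adjusted p = 0.104) and parietal replicate 1 (-2.09, adjusted p = 0.1). Without isthmus replicate 1, 2 or 3 its adjusted p was 0.0596, 0.0589 and 0.0618.

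Of the 7 measured genes of the spindle checkpoint and of the anaphase-promoting complex, the ubiquitin ligase that it restrains, 4 fell against chief and 6 against isthmus. Bub1, a checkpoint kinase, was at 6.31, 7.29 and 8.63 on chief arrays, 8.46, 8.99 and 9.36 on isthmus arrays and 1.85, 4.03 and 0.00 on parietal arrays. The parietal values included the floor of 0 and were below all others, at least 2.98-fold under chief (adjusted p = 0.00262). Ube2c, which passes ubiquitin to targets of that complex, read 9.54, 11.95 and 12.14, then 11.90, 11.83 and 12.0, then 8.66, 6.70 and 4.34. The isthmus arrays were close together, chief replicate 1 was below them, and parietal arrays were at least 17.6-fold below chief (adjusted p = 0.00232) and at least 28.6-fold below isthmus (adjusted p = 0.000759). Cdc20, which activates the complex, fell at least 8.63-fold and Mad2l1, the checkpoint protein that inhibits Cdc20, fell 4.24-fold against chief (adjusted p = 0.00272 and 0.0378). The call of Mad2l1 was lost without any 1 of chief replicates 2 and 3, isthmus replicate 3 or the 3 parietal replicates (adjusted p from 0.0521 to 0.143).

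Bub1b and Ttk, checkpoint kinases, did not pass against chief (adjusted p = 0.211 and 0.135) and fell against isthmus by at least 9.06-fold and at least 6.44-fold (adjusted p = 0.00473 and 0.00773). Without chief replicate 1 both passed against chief (adjusted p = 0.0349 and 0.0362). Bub3, which carries Bub1 and Bub1b to the kinetochore, was at 11.87, 11.23 and 11.70 in chief, 12.10, 11.41 and 11.63 in isthmus and 10.89, 11.44 and 11.14 in parietal samples. All 3 groups overlapped for Bub3, with a parietal minus chief difference of -0.44 (95% interval -0.99 to 0.10, adjusted p = 0.231), which was above 0 once arrays were centred on their medians.

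Genes of sister chromatid cohesion and its release went in both directions. Pttg1 (securin), which holds the cohesin-cutting protease separase inactive until anaphase, was the only member called higher in parietal cells. It read 11.50, 11.98 and 12.25 on chief arrays, 11.83, 12.23 and 12.16 on isthmus arrays and 13.13, 13.04 and 13.02 on parietal arrays. The 3 parietal arrays lay close together and above all 6 others. Pttg1 rose 2.22-fold against chief (log2 difference 1.15 ± 0.19 SE, adjusted p = 0.000949) and 1.99-fold against isthmus (0.99 ± 0.19 SE, adjusted p = 0.00222), and both calls held under each of the 20 alternatives tried. Its other 2 probe sets had higher parietal means too, 11.91 against 9.33 in chief and 10.06 in isthmus for the first, and 9.64 against 8.92 and 9.20 for the second, where the arrays overlapped.

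Espl1 (separase) was at 2.56, 7.90 and 3.03 in chief, 7.22, 7.63 and 9.56 in isthmus and 3.71, 5.31 and 2.11 in parietal samples. Chief replicate 2 stood with the isthmus arrays and the other chief arrays with the parietal ones. The parietal minus chief difference of Espl1 was -0.79 (95% interval -3.91 to 2.34, adjusted p = 0.74), and without chief replicate 2 it was 0.92. Against isthmus Espl1 fell at least 4.92-fold (adjusted p = 0.0367), a call lost without any of the 3 isthmus arrays or parietal replicates 1 and 3 (adjusted p from 0.0598 to 0.143). Cdca5 (sororin), which protects cohesin, read 0.71, 7.97 and 7.36, then 10.24, 9.0 and 9.66, then 1.47, 7.54 and 0.00. Chief and parietal arrays overlapped for Cdca5 (adjusted p = 0.434), and the isthmus arrays were above all of them. Its fall against isthmus, at least 9.3-fold (adjusted p = 0.0252), was lost without any isthmus array or parietal replicates 1 and 3 (adjusted p from 0.0507 to 0.098). Sgo1 (shugoshin, listed as Sgol1) fell at least 3.46-fold against chief (adjusted p = 0.00597) and at least 8.96-fold against isthmus (adjusted p = 0.000491).

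Of the kinetochore and centromere genes, 0 of 8 passed against chief, although 5 of the 8 were lower at an unadjusted limma p under 0.05, as 20% of tested genes were. Against isthmus, 5 of the 8 fell. Cenpa, the histone H3 variant that marks the centromere, was at 6.91, 8.87 and 9.14 in chief, 9.60, 9.14 and 9.55 in isthmus and 8.85, 9.71 and 8.65 in parietal samples. Parietal arrays spanned the upper chief and the isthmus range. The difference of Cenpa was 0.76 against chief (95% interval -0.48 to 2.01, adjusted p = 0.373) and -0.36 against isthmus (-1.61 to 0.89, adjusted p = 0.692). Its other 2 probe sets also had parietal means above chief, at 8.33 against 7.90 and 6.09 against 2.64, and below isthmus, at 8.72 and 6.95.

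Spc25, a subunit of the Ndc80 complex that grips microtubules, read 7.94, 9.55 and 9.39 on chief arrays, 10.53, 10.09 and 10.19 on isthmus arrays and 9.23, 9.06 and 9.29 on parietal arrays. The isthmus arrays were above all others, and parietal arrays lay within the chief range. Its difference was 0.23 against chief (95% interval -0.72 to 1.19, adjusted p = 0.747) and turned to -0.28 without chief replicate 1. Against isthmus it was -1.08 (95% interval -2.03 to -0.12, adjusted p = 0.0887). Without chief replicate 1 that comparison passed (adjusted p = 0.0232) with the difference unchanged.

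The other subunits of the same complex differed from Spc25 in their values. Ndc80 was at 1.74, 8.06 and 8.63 in chief, 7.94, 8.08 and 8.43 in isthmus and 2.55, 1.62 and 1.51 in parietal samples. Only chief replicate 1 was as low as the parietal arrays, and without it the Ndc80 difference against chief was -6.45 (adjusted p = 0.000672) in place of -4.25 (adjusted p = 0.0599). Nuf2 and Spc24 had differences of -3.68 and -1.62 against chief (adjusted p = 0.0576 and 0.0835). Nuf2 passed without parietal replicate 2 (adjusted p = 0.0076), Spc24 and the kinetochore motor Cenpe without chief replicate 1 (adjusted p = 0.00292 and 0.0019), and Cenpe also without parietal replicate 2 (adjusted p = 0.0458). Against isthmus, Ndc80, Nuf2, Spc24 and Cenpe fell by at least 4.97-fold, at least 8.42-fold, 8-fold and at least 12.8-fold (adjusted p = 0.00857, 0.00599, 0.00373 and 0.00572).

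Cenpk, a subunit of the inner kinetochore, was at 6.65, 8.07 and 8.69 (chief), 10.03, 9.15 and 9.21 (isthmus) and 7.13, 6.97 and 7.63 (parietal). Its parietal arrays lay within the chief range and below the isthmus arrays, 4.66-fold lower than isthmus (adjusted p = 0.0144, or 0.0645 without isthmus replicate 1). The difference of Cenpk against chief was -0.56 (95% interval -1.85 to 0.73, adjusted p = 0.538). Cenpf, a large protein of the outer kinetochore, passed neither comparison (adjusted p = 0.111 and 0.0521), with parietal values of 8.46, 6.09 and 0.43. Without parietal replicate 1 it passed both (adjusted p = 0.019 and 0.00789). On the mean of its 3 probe sets Cenpf also passed both (adjusted p = 0.00518 and 0.00316).

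**Figure D2:**
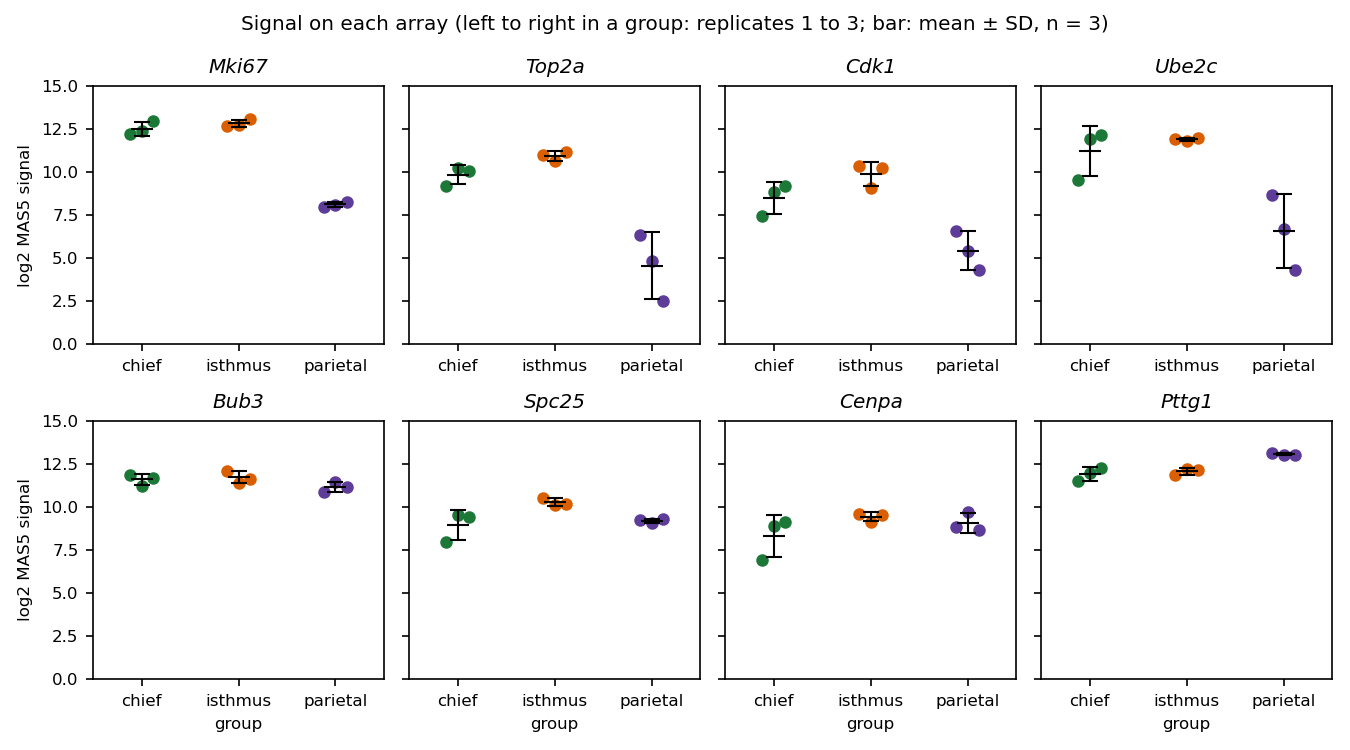
Log2 MAS5 signal of 8 members on each array (points, replicates 1 to 3 from left to right within a group) with the group mean and SD (n = 3). Mki67, Top2a, Cdk1 and Ube2c have their lowest values on the parietal arrays, Bub3, Spc25 and Cenpa overlap between parietal and chief arrays, and Pttg1 is highest on the parietal arrays.

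Mitotic kinesins, the motors that sort microtubules and chromosomes, fell in 6 of 7 members against each Mist1+ group, with median log2 differences of -4.17 and -5.96. Kif2c, which takes microtubules apart at the centromere, read 7.30, 10.14 and 8.07 in chief, 9.27, 10.20 and 8.49 in isthmus and 3.44, 1.93 and 3.25 in parietal samples. On this probe set the parietal arrays were far below the others, at least 6.35-fold against chief (adjusted p = 0.000544). On another bright probe set of Kif2c the parietal mean was 5.02, against 5.94 in chief and 8.03 in isthmus. There the difference against chief was only -0.92, and parietal and chief arrays overlapped. Kif22, a motor on chromosome arms, was at 9.26, 9.98 and 10.30, then 10.17, 10.19 and 10.73, then 0.94, 2.64 and 8.48. Parietal replicate 3 was close to the lowest chief array, while the other parietal arrays were well below it, and the fall against chief was at least 8.79-fold (adjusted p = 0.00819, or 0.0684 without both chief replicate 3 and parietal replicate 1). Kif11, which pushes the spindle poles apart, fell at least 8.48-fold against chief (adjusted p = 0.00168) and Kif4 at least 5.29-fold (adjusted p = 0.00329).

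Kif20a, a motor of the late spindle, had chief values of 8.33, 10.38 and 7.50 and parietal values of 3.04, 8.14 and 2.23. Parietal replicate 2 overlapped the chief arrays, and the call (adjusted p = 0.0252) was lost without chief replicate 2 or parietal replicates 1 or 3 (adjusted p from 0.0839 to 0.0994). Kif15, a partner of Kif11, fell against chief by a log2 difference of -4.17 (adjusted p = 0.0152, or 0.0501 without chief replicate 2), with no bound on the fold. Kif23, the motor of centralspindlin, which organises the middle of the late spindle, passed neither comparison (differences -0.64 and -2.33, adjusted p = 0.627 and 0.0577). Without chief replicate 1 or chief replicate 3, Kif23 passed against isthmus (adjusted p = 0.00763 and 0.0491), with the difference unchanged at -2.33.

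Spindle and centriole proteins fell in 5 of 6 members against chief and 4 of 6 against isthmus. Tpx2, which activates Aurora A and seeds spindle microtubules, read 9.19, 9.25 and 8.59 on chief arrays, 10.30, 9.94 and 10.25 on isthmus arrays and 2.41, 2.60 and 1.70 on parietal arrays. Replicates were close in all 3 groups, the isthmus arrays were highest and the parietal arrays lowest, with no overlap. Tpx2 fell at least 9.02-fold against chief (log2 difference -6.77 ± 0.61 SE, adjusted p = 1.30e-05) and at least 20.1-fold against isthmus (adjusted p = 4.30e-06). Aspm, a protein of the spindle poles, was at 7.65, 9.49 and 9.80 (chief), 10.06, 9.86 and 9.76 (isthmus) and 0.00, 4.28 and 6.04 (parietal). Parietal replicate 1 was at the floor of 0 and the other parietal arrays below every chief array, a fall of at least 8.48-fold (adjusted p = 0.00502).

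Nusap1, which bundles spindle microtubules, fell at least 9.71-fold against chief (adjusted p = 0.00439, or 0.0562 without both chief replicate 3 and parietal replicate 1). Ckap2, a protein bound to spindle microtubules, fell at least 2.12-fold (adjusted p = 0.0199) and lost that call without chief replicate 3 (adjusted p = 0.0759), parietal replicate 1 (adjusted p = 0.0598) or parietal replicate 2 (adjusted p = 0.0579). Plk4, the kinase that starts centriole duplication, fell 2.94-fold against chief (adjusted p = 0.0378) and did not pass against isthmus (adjusted p = 0.117). Its call against chief was lost without chief replicates 1 or 3 or parietal replicates 2 or 3 (adjusted p from 0.0672 to 0.138). On the mean of its 3 probe sets Plk4 passed against isthmus (difference -3.19, adjusted p = 0.00179). Hmmr, a spindle protein, passed neither comparison on its brightest probe set (differences -1.48 and -1.63, adjusted p = 0.186 and 0.134) and passed both on the mean of its 5 probe sets (adjusted p = 0.0236 and 0.0116).

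Cytokinesis genes, which build the ring that splits the cell, fell in 4 of 4 members against each Mist1+ group, with median log2 differences of -3.80 and -4.55. Ect2, which switches on the small GTPase RhoA at the ring, was at 8.22, 9.03 and 9.57 in chief, 11.12, 10.10 and 10.32 in isthmus and 7.12, 2.22 and 2.04 in parietal samples. The groups did not overlap, with isthmus highest, and parietal replicate 1 was well above the other parietal arrays. Ect2 was at least 6.41-fold below chief (adjusted p = 0.00446) and at least 19.1-fold below isthmus (adjusted p = 0.000643) in parietal cells. Prc1, which crosslinks the central spindle, fell at least 10.2-fold against chief (adjusted p = 0.000628), and Racgap1, the partner of Kif23, at least 5.22-fold (adjusted p = 0.00386). Anln (anillin), a scaffold of the ring, fell at least 6.67-fold (adjusted p = 0.00405, or 0.0529 without both chief replicate 3 and parietal replicate 1). Its call against isthmus was lost on the mean of its 2 probe sets (adjusted p = 0.0977).

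Genes of mitotic chromosome structure fell in 6 of 8 members against chief and 8 of 8 against isthmus. Mki67, which coats mitotic chromosomes and is used as a marker of dividing cells, was at 12.22, 12.37 and 12.98 on chief arrays, 12.67, 12.76 and 13.08 on isthmus arrays and 8.0, 8.10 and 8.28 on parietal arrays. Parietal arrays were separate from and far below the others, and chief and isthmus arrays overlapped. The fall of Mki67 was 21.1-fold against chief (log2 difference -4.40 ± 0.25 SE, adjusted p = 3.33e-07) and 26.2-fold against isthmus (-4.71 ± 0.25 SE, adjusted p = 4.94e-07). Parietal Mki67 stayed above the array median on every array. Top2a, the topoisomerase that untangles chromosomes, read 9.20, 10.22 and 10.09, then 11.02, 10.64 and 11.19, then 6.37, 4.85 and 2.49. The 3 groups did not overlap, and Top2a was at least 14.2-fold below chief (adjusted p = 0.000441) and at least 30.7-fold below isthmus (adjusted p = 9.48e-05) in parietal cells.

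The 5 condensin subunits among the members did not all pass against chief. Smc4, a core ATPase of condensin, was at 10.58, 11.43 and 11.20 in chief, 12.08, 11.82 and 12.11 in isthmus and 9.20, 9.92 and 9.86 in parietal samples. Its 3 groups were in the order parietal, chief, isthmus without overlap, 2.66-fold below chief (adjusted p = 0.00382, or 0.0896 with arrays centred on their medians). Ncapg, a regulatory subunit, read 8.04, 7.86 and 8.97, then 10.41, 10.16 and 10.15, then 6.59, 9.12 and 7.57. Parietal replicate 2 was above every chief array, and the Ncapg difference against chief was -0.53 (95% interval -1.83 to 0.77, adjusted p = 0.565), turning to 0.06 without parietal replicate 1. Against isthmus Ncapg fell 5.58-fold (adjusted p = 0.00819).

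Smc2, Ncapd2 and Ncaph fell against chief by 3.78-fold, at least 2.84-fold and at least 2.96-fold (adjusted p = 0.045, 0.0392 and 0.0191). Each of those calls was lost on leaving out single arrays: for Smc2, any but chief replicate 1 and parietal replicate 2 (adjusted p from 0.0595 to 0.159), and for Ncapd2, any of chief 2 and 3, isthmus 2 and 3 and parietal 2 and 3 (adjusted p from 0.051 to 0.122). For Ncaph they were chief 3, parietal 2 and parietal 3 (adjusted p from 0.0554 to 0.0622). On the mean of its 2 probe sets Ncapd2 passed neither against chief (adjusted p = 0.47) nor against isthmus (adjusted p = 0.364). Cdca2, which brings a phosphatase to chromosomes at mitotic exit, did not pass against chief (adjusted p = 0.145, or 0.0212 without chief replicate 1). On the mean of its 3 probe sets Cdca2 passed against chief (adjusted p = 0.0124). It fell at least 7.06-fold against isthmus (adjusted p = 0.0216), a call lost without isthmus replicates 2 or 3 or parietal replicate 3 (adjusted p from 0.0589 to 0.0846).

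**Figure D3:**
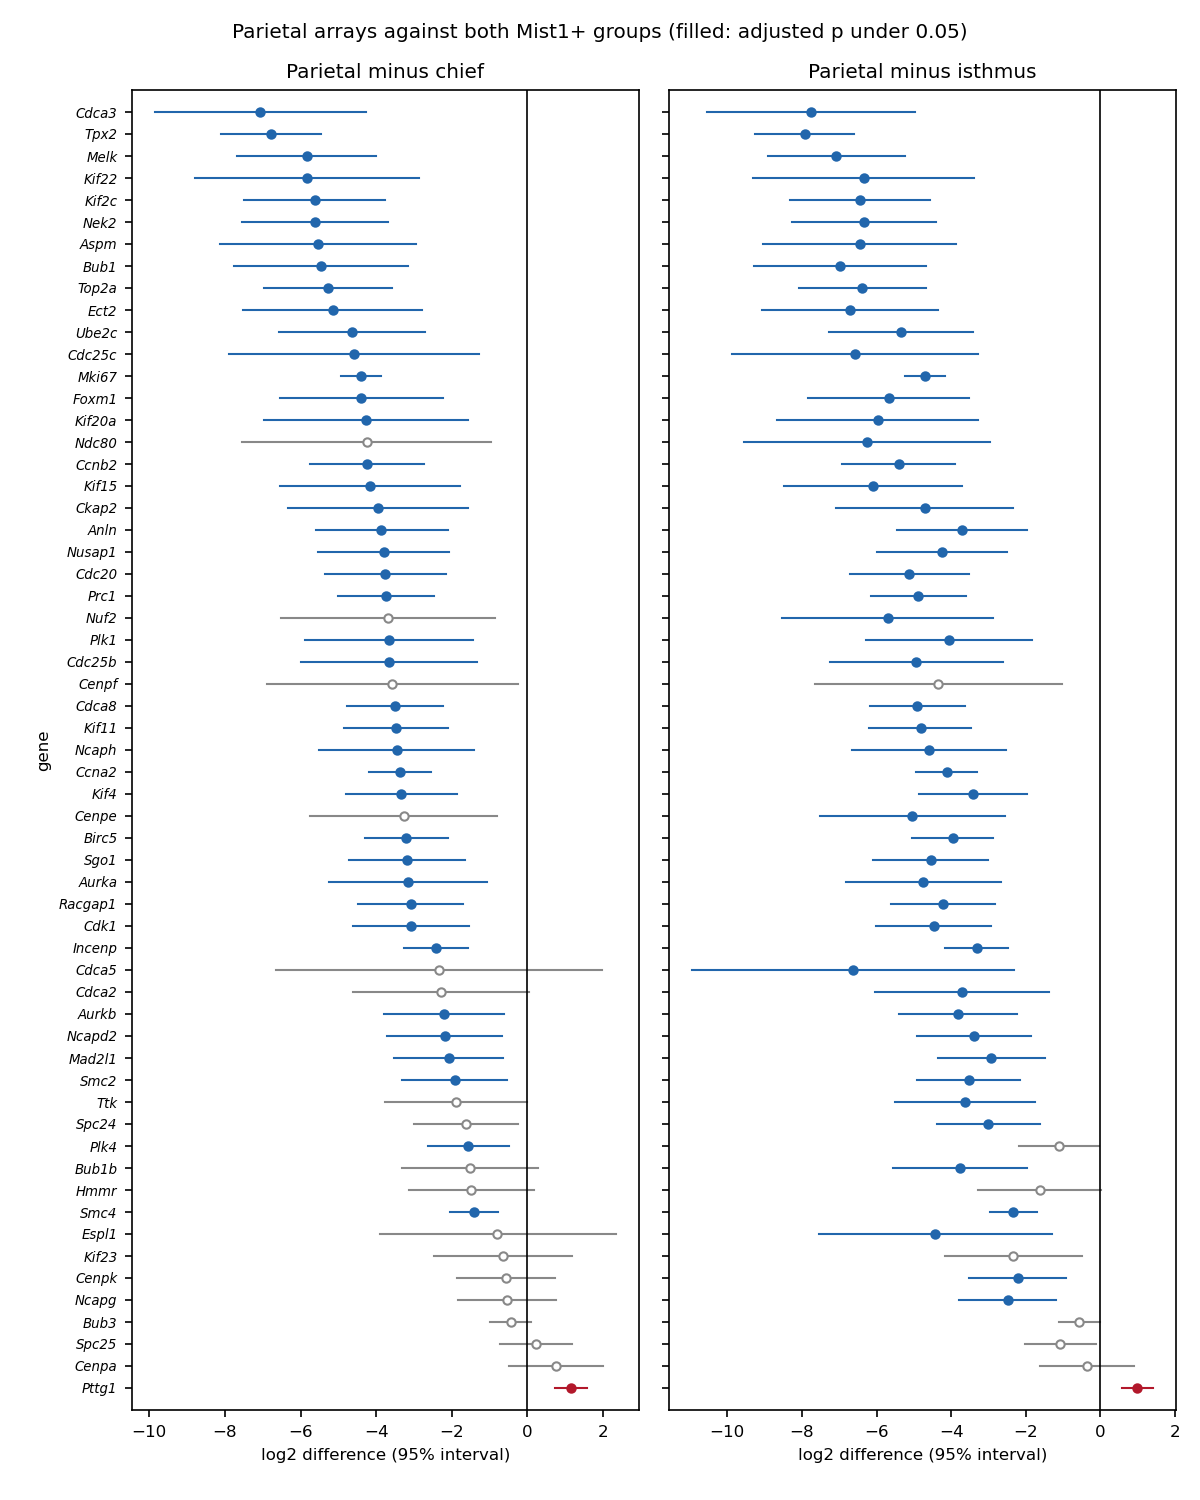
Log2 difference of parietal minus chief (left) and parietal minus isthmus (right) for the 59 members, with 95% intervals from limma. Filled points have an adjusted p under 0.05 (blue lower, red higher in parietal) and open grey points do not. All but Pttg1, Cenpa and Spc25 have differences below 0 against chief, and all but Pttg1 against isthmus.

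Calls that held whichever alternative was tried were fewer than the totals. Of the 42 members called between parietal and chief (24.2% of tested genes were called), 24 were called under every one of the 20 alternatives that gave a value, and all 42 kept their sign. Against isthmus, 44 of the 52 called (27.5% of tested genes) were called throughout and all 52 kept their sign. Of the promoter motifs, TTTGAA was in 23 of the 33 members with a promoter entry that fell against chief and in 12 of the 15 that were not called, and CCAAT in 24 and 12. No test was run on these counts.

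Isthmus samples had higher mean signals than chief samples for most members, but no member passed the test in the single fit of all groups. The isthmus minus chief difference was above 0 for 57 of 59 members, with a median of 1.21 on the log2 scale beside 0.03 over all tested genes. Only the isthmus group was labelled as coming from corpus after Lgr5+ cell ablation. Cell type and any effect of the ablation cannot be told apart in this comparison. With limma, 0 of 59 were called, where 1.65% of tested genes were (0.391% higher and 1.26% lower), and the lowest adjusted p of a member was 0.123. At an unadjusted p under 0.05 there were 11 members, all higher in isthmus, where 8.28% of tested genes were. All 3 isthmus arrays lay above all 3 chief arrays for 23 members and below them for 0, where 10.6% and 10.5% of tested genes did so. The median standard error of a member's difference was 0.80. It came from the single fit, so it includes the spread of the parietal arrays, which are not part of this comparison. The median SD of a member was 1.11 in chief, 0.44 in isthmus and 1.08 in parietal samples. With only the 2 groups compared, 1 member was called by limma (Cdca8, log2 difference 1.41, adjusted p = 0.0488).

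The members with the lowest unadjusted p were of several roles. Ncapg had an isthmus minus chief difference of 1.95 (95% interval 0.65 to 3.25, adjusted p = 0.123 by limma), Smc4 of 0.93 (0.30 to 1.56, adjusted p = 0.128) and Spc25 of 1.31 (0.36 to 2.26, adjusted p = 0.153). All isthmus arrays of these 3 genes exceeded all chief arrays. Cenpk differed by 1.66 (0.37 to 2.95, adjusted p = 0.177) and Bub1b by 2.24 (0.45 to 4.04, adjusted p = 0.193). Bub1b was at 5.14, 8.22 and 7.36 in chief, 9.52, 9.40 and 8.53 in isthmus and 6.25, 4.74 and 5.17 in parietal samples, so its isthmus arrays were highest and chief replicate 1 lay within the parietal range. Cdca5 (4.29, 95% interval -0.02 to 8.60) and Espl1 (3.64, 0.52 to 6.76, adjusted p = 0.224) had 1 and 2 chief arrays below the array median, which bounds the folds at only at least 5.27 and at least 2.21.

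Mki67, by contrast with its distance from parietal cells, had an isthmus minus chief difference of 0.31 (95% interval -0.23 to 0.85, adjusted p = 0.563), with chief and isthmus arrays overlapping. Plk4 and Anln were the 2 members below 0, at -0.44 and -0.15 (adjusted p = 0.696 and 0.952). By role, median differences were from 0.60 (spindle and centriole proteins) to 2.51 (cohesion and its release), with 1.52 for the kinetochore and centromere.

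The size of these differences moved with chief replicate 1, which had the lowest chief value for 52 of the 59 members (88.1%), against 36.3% of all tested genes. Over the members its median deviation from the mean of the other 2 chief arrays was -1.60 on the log2 scale, beside 0.00 over all tested genes and -0.72 over 32 genes of G1/S and DNA replication. Deviations were largest for Cdca5 (-6.96), Ndc80 (-6.61) and Cdc25c (-5.43). Exceptions, with another chief array lowest, were Bub3, Kif20a, Tpx2, Ckap2, Plk4, Ncapg and Ncaph. By role, it was lowest in 10 of 10 entry regulators, 8 of 8 kinetochore genes and 3 of 6 spindle and centriole genes.

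Without chief replicate 1, the median isthmus minus chief difference of the members was 0.56, with 49 of 59 above 0 and a lowest adjusted p of 0.266. All isthmus arrays lay above the 2 other chief arrays for 23 members, where 15.4% of tested genes showed it. Leaving out an array cannot lower such a count, and chief replicate 1 was the lowest chief array for 52 of 59 members. The unchanged count therefore cannot show whether the difference depends on that array. The marker sum of isthmus progenitors was lower on chief replicate 1 too, at 11485 against 19103 and 19003 on the other chief arrays. That sum did not order the groups as the mitotic genes did. It was 14770 to 16047 on isthmus arrays and 12986 to 14379 on parietal arrays. The chief, enteroendocrine and surface pit sums were highest on chief replicate 1, at 169919, 80553 and 143708. Their part in the spread of the mitotic genes was not tested.

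**Figure D4:**
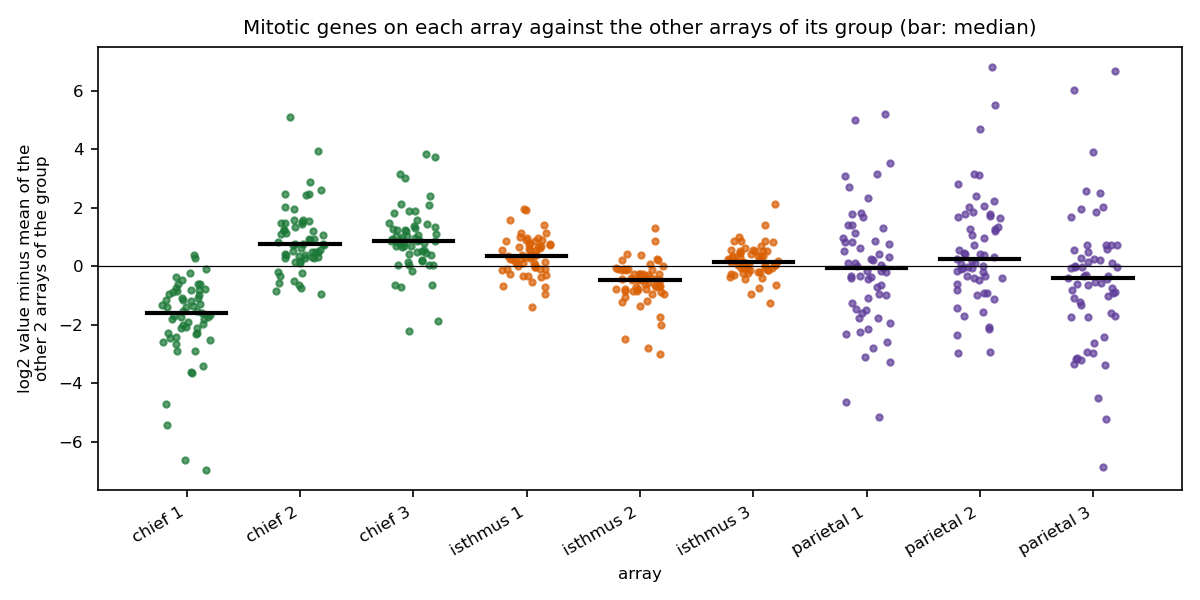
For each array, the log2 value of each of the 59 members minus the mean of the other 2 arrays of the same group (points), with the median as a bar. Chief replicate 1 has a median of -1.60 and nearly all points below 0, isthmus replicate 2 a median of -0.46, and the parietal arrays have medians of -0.07, 0.25 and -0.38 with a wide scatter.

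**Figure D5:**
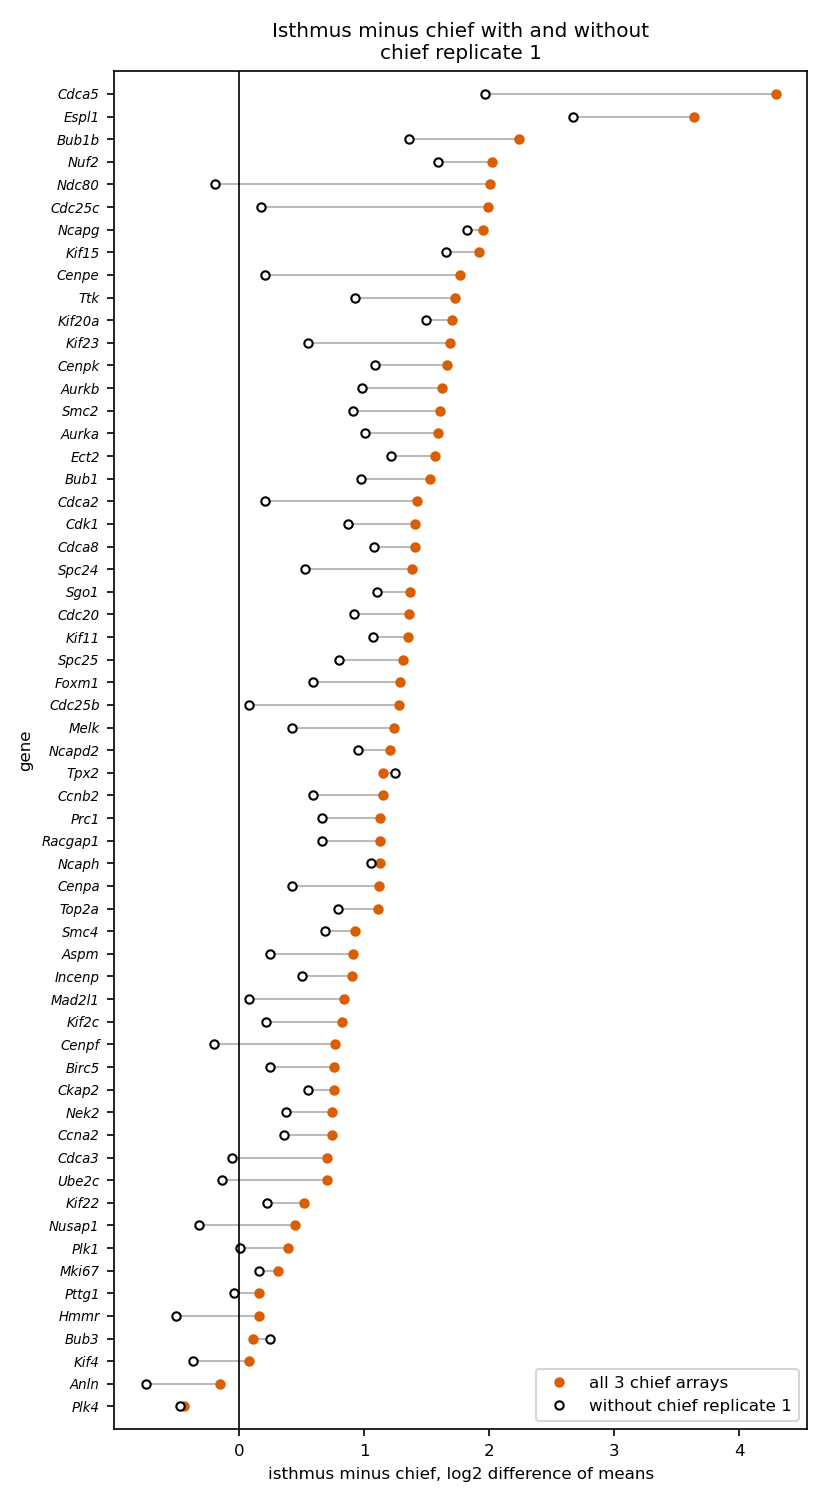
Isthmus minus chief log2 difference of means for each member with all 3 chief arrays (filled orange points) and without chief replicate 1 (open points). Most open points are nearer to 0, and 49 of 59 remain above it.

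The spread among replicates was wider for the members than for other genes in 2 of the 3 groups. The median SD of a member was 1.11 in chief and 1.08 in parietal samples, against 0.53 and 0.42 over all tested genes. In isthmus samples it was 0.44 against 0.47. Isthmus replicate 2 was the lowest of its group for 42 of 59 members (71.2%, against 32.3% of tested genes), by a median of -0.46. Parietal replicate 3 had 22 of 59 members above its array median, against 32 and 31 on the other parietal arrays.

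Among the members, 41 had 80 further probe sets that name them alone, of which 51, in 32 members, were bright enough to compare. The sign of the parietal minus isthmus difference was the same as on the main probe set for 51 of 51, and of parietal minus chief for 50 of 51, with 1 for Kif23 opposite (0.52). Isthmus minus chief had the same sign for 47 of 51, with the opposite sign on 2 probe sets of Foxm1 (-1.51 on both) and 1 each of Hmmr (-0.99) and Plk4 (3.80).

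Other mitotic genes were in part lower in parietal cells, as were some cohesin genes against isthmus, while few genes of the anaphase-promoting complex were called. Of 63 tested further mitotic genes, 25 fell and 1 rose in parietal against chief cells, and 38 fell and 1 rose against isthmus, with median log2 differences of -1.60 and -2.83. Kif20b, a kinesin of cytokinesis, fell at least 4.31-fold against chief (adjusted p = 0.000935) and Knl1, the kinetochore scaffold that recruits Bub1 and Bub3, at least 4.65-fold (adjusted p = 0.0071). Mybl2, the transcription factor that joins MuvB at late cell cycle genes, rose at least 2.83-fold (adjusted p = 0.0495). Of 14 genes of the anaphase-promoting complex itself (its subunits and the activator Fzr1), 1 fell (Cdc26, 2.3-fold, adjusted p = 0.0261) and 0 rose against chief, with a median difference of -0.00. Against isthmus, 0 fell and 1 rose (Anapc13, 2.13-fold higher in parietal cells, adjusted p = 0.000222), with a median of -0.36. Against chief, isthmus cells had 1 subunit higher (Anapc7, 3.45-fold, adjusted p = 0.0489) and 1 lower (Anapc13, 1.66-fold, adjusted p = 0.0375). Of 10 cohesin genes, 1 fell against chief (Nipbl, the loader, 2.14-fold, adjusted p = 0.00904) and 3 against isthmus, among them Esco2, which acetylates cohesin in S phase, at least 9.47-fold (adjusted p = 0.00638). The cohesin medians were -0.36 and -0.46, and over all tested genes 13.5% fell against chief and 15.4% against isthmus.

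Genes of G1/S and DNA replication fell in 20 of 32 tested against chief and 26 of 32 against isthmus, with 0 rising. Over all tested genes, 13.5% and 15.4% fell and 10.7% and 12.2% rose. Gins1, of the replicative helicase, fell at least 9.27-fold against chief (adjusted p = 5.34e-05) and Uhrf1, which maintains DNA methylation, at least 10.5-fold (adjusted p = 0.000169). Between isthmus and chief, 0 of the 32 and 0 of the 63 further mitotic genes were called, with median differences of 0.89 and 0.83. Of 9 tested Cdk inhibitors and pocket proteins, 2 rose and 1 fell against chief in parietal cells, where 10.7% and 13.5% of tested genes did. The median difference of these 9 was 0.03, with 5 above 0 and 4 below. Cdkn2b (p15), an inhibitor of Cdk4 and Cdk6, was at 6.17, 8.45 and 10.06 in chief, 10.43, 10.36 and 10.01 in isthmus and 13.0, 12.76 and 13.23 in parietal samples. Its parietal arrays were above all others, at least 26-fold over chief (adjusted p = 0.000338). Cdkn1a (p21) rose 2.76-fold (adjusted p = 0.000286). Cdkn1c (p57) fell at least 14.6-fold against chief (adjusted p = 0.0103), from 11.93, 8.85 and 10.93 to 8.46, 1.72 and 2.28. This was a log2 difference of -6.42, whereas the lowest parietal minus isthmus difference among the 9 genes was -2.89. The isthmus mean of Cdkn1c was therefore below the chief mean too, although 0 of the 9 were called between isthmus and chief.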

How the data were processed

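The authors deposited MAS5 signals on a log2 scale, per the submitters' processing notes. For the MAS5 version, the step to log2 and the floor at 0 (1.99% to 3.91% of an array's values), the details are not given in the sources used. The log base was settled from the trimmed means, near equal on all arrays with base 2. Of 45037 probe sets, 34945 named 1 gene in the platform annotation, 932 several and 9160 none.

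Groups and replicate numbers came from sample titles. The test was limma 3.58.1 under R 4.3.3, as lmFit, contrasts.fit and eBayes with a trend, in a single fit of all 9 arrays (6 residual degrees of freedom). Genes had to exceed their array's median on 3 or more arrays. Tests were two-sided, with Benjamini-Hochberg adjustment over 11006 genes per comparison and no minimum fold. The code was tested on simulated data. The number of arrays limits the precision.

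Members and lists were chosen with earlier results of these data known. Named members were, per comparison, the 8 called with the largest difference in each direction, the 3 with the smallest difference between parietal and chief, any against the median direction, the 6 with the lowest p between isthmus and chief, and Mki67, Top2a, Ccnb1, Cdk1, Plk1, Aurkb, Bub1, Cenpa, Foxm1, Ube2c and Birc5. Other members are given by counts, differences or, where a call turned on single arrays, by those. Up to 4 called genes of each further list could be named. No detection calls or scanner files were used here.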

Additional observations from a re-analysis of the deposited data

How the results depend on the processing

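With each array left out in turn, called members numbered 0 each time between isthmus and chief, 31 to 47 between parietal and chief and 48 to 54 between parietal and isthmus. Members with all isthmus above all chief arrays numbered 23 to 37, where 14.6% to 17.1% of tested genes did so, an alternative chosen after seeing the data. Leaving out an array cannot lower this count, so it could not fall below the 23 found with all arrays. Without both chief replicate 3 and parietal replicate 1, the called counts were 0, 29 and 51. The 42 called between parietal and chief became 35 with quantile normalization, 34 with arrays centred and 34 with no intensity trend. They became 36 with no filter on dim genes and 32 with only the 2 groups compared. Pseudocounts of 16 and 64 gave 42 and 38. A filter of at least 6 arrays gave 35 of 50 members tested, and the mean of a gene's probe sets 36 of 52. Between isthmus and chief, 1 member was called with arrays centred on their medians (Smc4, log2 difference 1.31, adjusted p = 0.0449) and 1 with only the 2 groups compared (Cdca8, adjusted p = 0.0488). Centring moved the median of all tested genes to 0.41, 0.59 and 0.22 in the 3 comparisons, and the members' medians to 1.58, -2.76 and -4.24.

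Some uncalled differences changed sign. With 1 array left out at a time, isthmus minus chief ranged from -0.08 to 0.27 for Bub3 (-0.07 without chief replicate 2, -0.08 without isthmus replicate 1), from -0.06 to 1.10 for Cdca3, -0.04 to 0.33 for Pttg1 and -0.14 to 1.17 for Ube2c (each lowest without chief replicate 1), and from -0.27 to 1.22 for Plk1 (lowest without isthmus replicate 1). With the mean of its probe sets Bub3 was at -0.47. Parietal minus chief ranged from -1.75 to 0.92 for Espl1 (0.92 without chief replicate 2, 0.01 without parietal replicate 3), -1.21 to 0.06 for Ncapg (0.06 without parietal replicate 1, 0.40 without chief replicate 3 as well) and -0.28 to 0.53 for Spc25 (-0.28 without chief replicate 1). With arrays centred, Bub3 (0.25), Cenpk (0.13) and Ncapg (0.16) were above 0 between parietal and chief. Centring moves every gene's parietal minus chief difference up by the same amount. The cause of the other sign changes was not tested. Between parietal and isthmus, none of the 28 named members changed sign in 549 values.

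Same-numbered replicates deviated from their group means with correlations of -0.04 to 0.07. Between isthmus and chief these were 0.04, 0.04 and 0.07, against -0.05 to 0.01 for arrays with different numbers. Between parietal and chief they were 0.00, -0.01 and -0.04. With 3 arrays a group, such values cannot decide whether the numbers pair the samples. With the replicate number as a block, called members numbered 0, 39 and 52 in the 3 comparisons. Signals below the array median bound folds and were not resolved further.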
